A study of Homo sapiens with 40 samples.

Results

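The fibroblast growth factor (FGF) genes of human embryonic stem cells were followed across knockouts of the histone demethylase UTX, of its Y-linked paralog UTY, and of both. The set held 37 of the 60651 genes in the count tables: 20 genes for ligands (FGF1 to FGF5, FGF7 to FGF14, FGF16 to FGF22), 4 for the receptors FGFR1 to FGFR4, and 13 for feedback and target genes of the ERK cascade. The members were taken by name, without a cutoff on a measured value, but with earlier results of these data known. FGF ligands bind receptor tyrosine kinases together with heparan sulfate on the cell surface, and the receptors pass the signal through RAS, RAF and MEK to the kinase ERK. ERK activity turns on its own brakes: Sprouty (SPRY) and SPRED proteins act on the cascade above ERK, dual-specificity phosphatases (DUSP) remove the activating phosphates from ERK, and the PEA3 factors ETV1, ETV4 and ETV5, EGR1 and FOS are transcription factors that the signal induces. Human pluripotent stem cells need FGF2 in their medium, and FGF signals pattern all 3 germ layers in the embryo. FGF11 to FGF14 are intracellular proteins that bind sodium channels and do not act as secreted ligands.

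RNA was sequenced from 40 libraries in 20 groups of 2. Undifferentiated SEES3 cells, an established human embryonic stem cell line, were wild type (WT), UTXKO, the double knockout DKO, UTYKO, or the separate control of UTYKO. SEES3 cells cultured as endoderm (Endo), mesoderm (Meso) or ectoderm (Ecto) were WT, XKO, YKO or DKO, where the titles' XKO and YKO stand for loss of UTX or UTY. Cells of a second established line, H9, were WT or UTXKO, the knockouts in 2 sets numbered 3 and 4. The labels do not give the position of any edit, whether a group is 1 clone, the length or medium of the cultures, or whether the 2 libraries of a group came from separate cultures. The p-values below therefore measure the spread between these libraries, which may be technical. The undifferentiated cells were deposited as read counts, with 5781357 to 14973722 counts per library, given below as counts scaled to the library total (CPM). The other cultures and H9 were deposited as TPM, a level per transcript length that keeps no depth, and each table was normalized separately, so no level was tested across tables. The columns of the TPM tables carry no replicate numbers, and the 2 libraries of a group are called a and b in column order. KDM6A, which encodes UTX, was at 85.8 to 98.2 CPM in WT and 88.2 to 106 CPM in UTXKO, and at 19.1 to 22.1 TPM in H9 WT and 18.96 to 21.7 TPM in H9 UTXKO. Its gene-level value therefore does not check the knockout labels, and group names below stand for the libraries so labelled.

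Marker genes of the labelled cell types were present. The summed level of 6 pluripotency genes was 3066 to 3271 CPM in undifferentiated WT, and no marker was at 0 among the 6 endoderm genes in Endo WT, the 6 mesoderm genes in Meso WT or the 6 neural genes in Ecto WT. Markers of other cell types moved with DKO. The summed level of 6 neural ectoderm genes was 66.8 to 75.3 CPM in undifferentiated WT against 669 to 692 CPM in DKO, 18.3 to 19.8 TPM in Endo WT against 803 to 829.9 TPM in Endo DKO, and 23.9 to 30.7 TPM in Meso WT against 591 to 602 TPM in Meso DKO. In these bulk samples, a lower share of one cell type and less RNA per cell cannot be told apart.

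The regions upstream of 3 feedback genes are shown because the 3 genes rose together both in undifferentiated DKO and in H9 UTXKO cells (below). In undifferentiated SEES3 UTXKO cells, 0 of 13 feedback and target genes were called higher. The 3 genes did not rise in every DKO culture: EGR1 fell in Endo, and DUSP6 and SPRY2 fell in Ecto (below). Each runs from 250 bases before to 50 bases after the gene's RefSeq start in GRCh38.p14, 5′ to 3′ on the gene's strand. EGR1 lies on the plus strand of chromosome 5 (chr5:138465229-138465528), DUSP6 on the minus strand of chromosome 12 (chr12:89352452-89352751) and SPRY2 on the minus strand of chromosome 13 (chr13:80341077-80341376). Capitals mark CArG boxes, the element bound by serum response factor (CC, a run of A or T bases, GG).
EGR1: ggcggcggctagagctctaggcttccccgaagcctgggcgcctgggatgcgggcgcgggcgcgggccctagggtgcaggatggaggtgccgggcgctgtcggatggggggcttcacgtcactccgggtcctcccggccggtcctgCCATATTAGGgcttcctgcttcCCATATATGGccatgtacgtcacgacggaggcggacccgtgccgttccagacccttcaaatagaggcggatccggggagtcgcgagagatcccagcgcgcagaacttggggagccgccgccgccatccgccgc
DUSP6: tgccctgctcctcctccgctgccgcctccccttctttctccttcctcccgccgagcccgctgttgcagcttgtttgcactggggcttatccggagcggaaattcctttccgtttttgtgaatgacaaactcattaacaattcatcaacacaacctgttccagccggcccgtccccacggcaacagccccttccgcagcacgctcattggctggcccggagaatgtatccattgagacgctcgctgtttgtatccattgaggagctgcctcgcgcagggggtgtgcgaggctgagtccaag
SPRY2: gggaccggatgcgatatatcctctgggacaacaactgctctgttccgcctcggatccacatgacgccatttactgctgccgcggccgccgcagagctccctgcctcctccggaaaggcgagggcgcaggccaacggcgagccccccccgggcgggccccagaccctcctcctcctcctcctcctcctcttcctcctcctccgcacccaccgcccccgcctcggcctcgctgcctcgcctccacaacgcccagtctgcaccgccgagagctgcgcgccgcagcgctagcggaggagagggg
EGR1 held 2 CArG boxes, at -105 and -83 bases from the start, and the DUSP6 and SPRY2 windows held none. RefSeq windows were matched for 25 of the 37 members, in 50 windows over alternative starts. In the first window of each gene, CArG boxes were in 2 of 25 (EGR1 and FGF3) against 1.29% of 35116 promoters of the same length. The ETS core CCGGAAGT, the AP-1 element TGANTCA and the cyclic AMP element TGACGTCA, searched on both strands, were in 0 of these 25, against 4.14%, 7.71% and 1.85% of promoters. Among all 50 windows, AP-1 elements were in 4 (SPRED2, FGF1, FGF11 and FGF13). These matches describe the letters of the windows and no binding was measured. FGF4, FGF8, FGF9, FGF16, FGF17, FGF19, FGF20, FGFR1, DUSP4, DUSP5, ETV4 and ETV5 were not matched.

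In undifferentiated WT cells the highest levels per kilobase of exon were those of the target gene ETV4 (43.5 CPM per kb), the receptor FGFR1 (33.3) and the inhibitors SPRY4 (23.6) and SPRY2 (23.5). Among ligands, FGF2 was highest per kilobase (17.6 CPM per kb), followed by FGF19 (14.96), FGF8 (10.04) and FGF4 (5.65). FGFR1 stood above FGFR2 (21.1), FGFR4 (11.2) and FGFR3 (8.71). EGR1 (1.94), FOS (1.89) and DUSP4 (0.647) were the lowest of the 13 feedback and target genes on this scale. FGF12 and FGF13 were also clearly detected (levels below). The remaining ligands were near the edge of detection. FGF3, FGF5 and FGF7 had 0 counts in both WT libraries. A count of 0 allows up to 0.446 CPM in WT 1 and 0.276 CPM in WT 2. FGF1, FGF11, FGF20, FGF21 and FGF22 had at most 7 counts in any undifferentiated library, FGF10 at most 13 and FGF14 at most 17. These 10 ligands and FGF16 fell below the count filter in the comparison of DKO with WT.

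**Figure D1:**
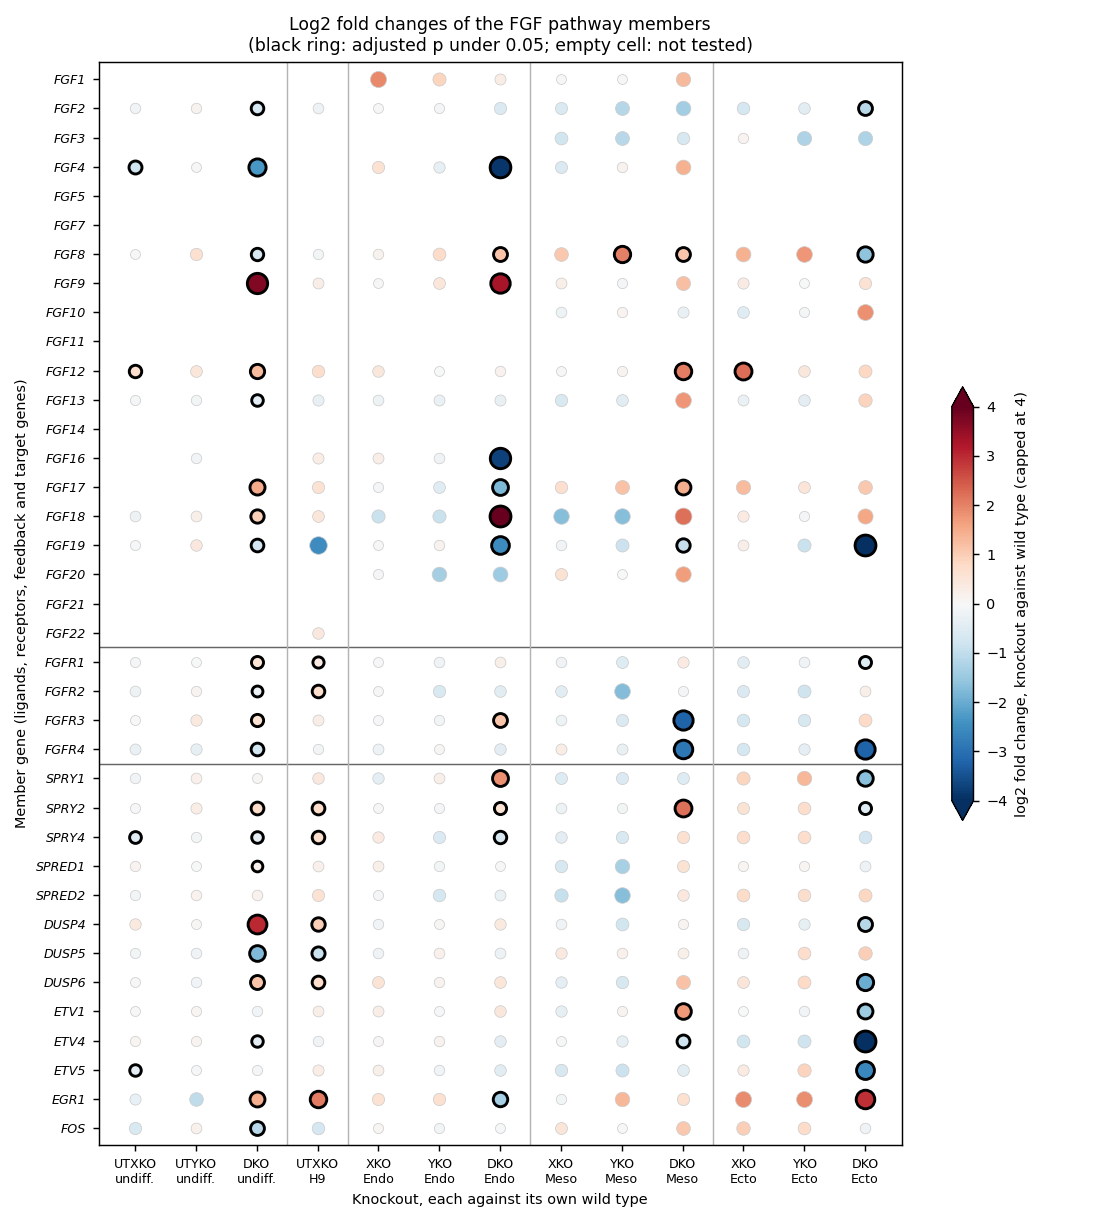
Log2 fold changes (colour and point size, capped at 4 on the log2 scale) of the 37 member genes (vertical axis) in 13 comparisons of a knockout with its own wild type (horizontal axis), with a black ring where the adjusted p was under 0.05 and an empty cell where the gene was not tested. Rings are most frequent in the 4 DKO columns, and the UTYKO, Endo XKO, Endo YKO, Meso XKO and Ecto YKO columns hold none.

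Loss of UTX alone in undifferentiated SEES3 cells went with lower FGF4, SPRY4 and ETV5 and higher FGF12. FGF4, a ligand made by the pluripotent cells of the embryo, was at 19.9 and 16.6 CPM in WT 1 and WT 2 and at 9.88 and 10.3 CPM in UTXKO. The groups did not overlap, and FGF4 fell with a log2 fold change of -0.84 ± 0.17 (SE), adjusted p = 0.00132, by edgeR's quasi-likelihood test. The separate control of UTYKO, however, was at 12.5 and 8.95 CPM, 1 library above and 1 below both UTXKO libraries. FGF12, an intracellular FGF, was at 16.9 and 16.6 CPM in WT and 27.6 and 25.9 CPM in UTXKO, both knockout libraries above both WT libraries (log2 fold change 0.68 ± 0.14 (SE), adjusted p = 0.00125). SPRY4, an inhibitor of the cascade, was at 144 and 165 CPM in WT and 114 and 107 CPM in UTXKO (log2 fold change -0.48 ± 0.089 (SE), adjusted p = 5.05e-04). Both UTXKO libraries lay below the lower WT library. ETV5 was at 86.2 and 89.5 CPM in WT and 67.00 and 64.4 CPM in UTXKO (log2 fold change -0.42 ± 0.092 (SE), adjusted p = 0.00272). Of 24 members tested, 1 rose and 3 fell at an adjusted p under 0.05, against 6.2% higher and 6.31% lower of 13810 genes, so the share of members that rose was near that of all genes. The members' median log2 fold change was -0.093 and that of all genes -0.0020. No receptor passed the test. The call of ETV5 was lost without WT 2 (adjusted p = 0.0673) and when all 10 undifferentiated libraries were fitted jointly (0.0880).

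Loss of UTY alone was not followed by a called change in any of 25 members tested, where 0.606% of 14684 genes were called in either direction by edgeR and DESeq2 also called 0 members. Of these members, 4 had an unadjusted p under 0.05. FGF8, a ligand of the primitive streak and midbrain, was at 10.4 and 14.96 CPM in the control and 18.9 and 21.3 CPM in UTYKO (log2 fold change 0.65 ± 0.22 (SE), adjusted p = 0.377). EGR1 was at 7.09 and 7.15 CPM in the control and 4.497 and 2.85 CPM in UTYKO (log2 fold change -1.03 ± 0.28 (SE), adjusted p = 0.159). Both genes had separate library values, yet neither passed the adjusted threshold. FGF12 and FGF19 had log2 fold changes of 0.48 ± 0.21 and 0.42 ± 0.18, with an adjusted p of 0.706 for both. With a term for the replicate number, edgeR called FGF8 (adjusted p = 0.00994) and EGR1 (0.00256). The joint fit of all 10 undifferentiated libraries called EGR1 (adjusted p = 0.0290). Without control 1 the test called FGF12, FGF19, FGFR4 and EGR1, and without control 2 it called FGF8 and FGFR3. In sum, 6 neural ectoderm genes were at 22.2 to 26.1 CPM in the control and 86.0 to 90.6 CPM in UTYKO. Of the 5 that were tested singly, edgeR called 1 higher and 0 lower. The part of these neural genes in the members' values was not tested.

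The 2 control groups differed in some members themselves. Of 28 members tested between the UTYKO control and WT, 2 were higher and 2 lower in the control, against 10.3% and 8.79% of 15191 genes. Neither share of members was above that of all genes. FGF4 (log2 fold change -0.76 ± 0.18 (SE), adjusted p = 0.00534) and FGFR2 (-0.54 ± 0.11 (SE), adjusted p = 0.00189) were lower in the control. FGFR2, which encodes a receptor, was at 168 and 152 CPM in WT and 110.2 and 106 CPM in the control. DUSP5 and DUSP6 were higher in the control, with log2 fold changes of 0.45 ± 0.13 (adjusted p = 0.0154) and 0.34 ± 0.11 (adjusted p = 0.0349). Without WT 1 the calls of FGF4 (adjusted p = 0.0735), DUSP5 (0.115) and DUSP6 (0.289) were lost and 1 member was called. Without WT 2 those of DUSP5 (0.132) and DUSP6 (0.0987) were lost and 2 members were called. Without control 1 the count was 11 members. The same 6 neural ectoderm genes summed to a lower level in this control (22.2 to 26.1 CPM) than in WT (66.8 to 75.3 CPM). Tested singly, 0 of the 6 were called higher and 1 lower by edgeR. The part of these neural genes in the members' differences was not tested.

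The double knockout changed the members more widely. Of 26 members tested in undifferentiated cells, 11 rose and 11 fell against WT, where 23.5% of 14637 genes rose and 23.4% fell, and the median log2 fold change was -0.023 for the members and 0.0037 for all genes. Among ligands 4 of 9 rose and 5 fell, among receptors 2 of 4 rose and 2 fell, and among feedback and target genes 5 of 13 rose and 4 fell. The same WT libraries served UTXKO and DKO, so the 2 comparisons are not independent.

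Of the ligands in undifferentiated cells, FGF4, FGF2, FGF8, FGF19 and FGF13 fell in DKO. FGF4 was at 3.22 and 4.19 CPM in DKO against 19.9 and 16.6 CPM in WT, a log2 fold change of -2.34 ± 0.19 (SE), adjusted p = 1.25e-09. Every DKO library lay below every library of the other undifferentiated groups for this gene. FGF2, the ligand that sustains pluripotent cultures, was at 128 and 111 CPM in WT and 76.2 and 73.3 CPM in DKO (log2 fold change -0.72 ± 0.077 (SE), adjusted p = 8.89e-08). FGF2 overlaps the antisense gene NUDT6 and the strand setting of the counting is not given in the sources used here, so their reads may not be separated. FGF8 was at 14.6 and 13.6 CPM in WT and 8.55 and 9.905 CPM in DKO (log2 fold change -0.66 ± 0.16 (SE), adjusted p = 0.00181). FGF19, an endocrine FGF that also acts in the embryo, was at 36.5 and 36.7 CPM in WT and 21.4 and 23.9 CPM in DKO (log2 fold change -0.75 ± 0.11 (SE), adjusted p = 5.33e-06). In all 4 of these ligands the groups did not overlap. FGF13 was at 43.7 and 46.4 CPM in WT and 33.3 and 36.3 CPM in DKO (log2 fold change -0.43 ± 0.10, adjusted p = 8.27e-04).

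FGF12, FGF9, FGF17 and FGF18 rose. FGF12 was at 40.9 and 42.03 CPM in DKO, above 16.9 and 16.6 CPM in WT and also above UTXKO, with a log2 fold change of 1.25 ± 0.11 (SE), adjusted p = 2.85e-09 against WT. FGF9, a ligand of the gonad and lung, rose from a near-zero level: 2 and 2 counts (0.297 and 0.184 CPM) in WT against 29 and 26 counts (3.22 and 3.302 CPM) in DKO (adjusted p = 4.02e-06). FGF17, a close relative of FGF8, had 4 and 6 counts in WT against 13 and 16 in DKO (adjusted p = 0.0146), and FGF18 had 11 and 15 against 32 and 18 (adjusted p = 0.0399). FGF9 and FGF17 passed the count filter only through the DKO libraries, where they are higher, which limits the reading of their p-values. The call of FGF17 was lost without WT 1, WT 2 or DKO 2 (adjusted p = 0.0694 to 0.176), and that of FGF18 without WT 1, WT 2 or DKO 1 (0.0725 to 0.439).

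Receptor genes moved in opposite directions. FGFR1, the receptor with the highest level in these cells, rose from 477 and 444 CPM in WT to 703 and 703 CPM in DKO (log2 fold change 0.56 ± 0.061 (SE), adjusted p = 1.13e-07). The other 6 undifferentiated libraries, of UTXKO, UTYKO and its control, were at most at 487 CPM. FGFR3 rose from 45.2 and 39.2 CPM to 63.3 and 69.3 CPM (log2 fold change 0.61 ± 0.089 (SE), adjusted p = 6.89e-06). FGFR4, a receptor of FGF19, fell from 52.8 and 55.1 CPM to 31.2 and 35.4 CPM (log2 fold change -0.75 ± 0.10 (SE), adjusted p = 1.00e-06). FGFR2 was at 168 and 152 CPM in WT and 136 and 142 CPM in DKO, the smallest change of the 4 receptors (log2 fold change -0.25 ± 0.068 (SE), adjusted p = 0.00498). The call of FGFR2 was lost without DKO 1 (adjusted p = 0.0815).

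Among the feedback genes the phosphatases split. DUSP4, a nuclear phosphatase of ERK, was at 5.35 and 4.04 CPM in WT and 41.4 and 35.3 CPM in DKO, the largest called rise of the 13 feedback and target genes (log2 fold change 3.02 ± 0.16 (SE), adjusted p = 6.19e-13). DUSP6, a cytoplasmic phosphatase of ERK, was at 75.8 and 82.4 CPM in WT and 182 and 184 CPM in DKO (log2 fold change 1.15 ± 0.072 (SE), adjusted p = 1.37e-11). DUSP5, another nuclear phosphatase of ERK, fell from 43.4 and 42.4 CPM to 13.6 and 12.6 CPM (log2 fold change -1.76 ± 0.11 (SE), adjusted p = 2.23e-11). For each of these 3 genes both DKO libraries lay outside the range of the other 8 undifferentiated libraries. The inhibitors also split, with SPRY2 at 73.4 and 69.5 CPM in WT and 122 and 129 CPM in DKO (log2 fold change 0.77 ± 0.072 (SE), adjusted p = 1.16e-08), and SPRY4 at 144 and 165 CPM against 125 and 112 CPM (log2 fold change -0.44 ± 0.080 (SE), adjusted p = 1.18e-04). SPRY2 rose while SPRY4 fell to the level seen in UTXKO.

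Of the transcription factors in undifferentiated DKO cells, EGR1 rose while ETV4 and FOS fell. EGR1 was at 6.54 and 5.61 CPM in WT and 17.2 and 17.1 CPM in DKO (log2 fold change 1.47 ± 0.17 (SE), adjusted p = 2.18e-07). ETV4 was at 157 and 156 CPM in WT and 127 and 118 CPM in DKO (log2 fold change -0.41 ± 0.069 (SE), adjusted p = 4.48e-05). The groups did not overlap for either gene. ETV5, which had fallen in UTXKO, had a log2 fold change of -0.083 ± 0.075 in DKO (adjusted p = 0.383). FOS was at 4.31 and 7.904 CPM in WT and 2.89 and 3.302 CPM in DKO (log2 fold change -1.11 ± 0.29, adjusted p = 0.00338), and without WT 2 its change was -0.51 (adjusted p = 0.310). SPRED1 had a log2 fold change of 0.19 ± 0.072 (adjusted p = 0.03000), and its call was lost without each of the 4 libraries (0.0507 to 0.188). DESeq2 called 18 of the 26 members and did not call FGF17, FGF18, SPRED1 and FOS.

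**Figure D2:**
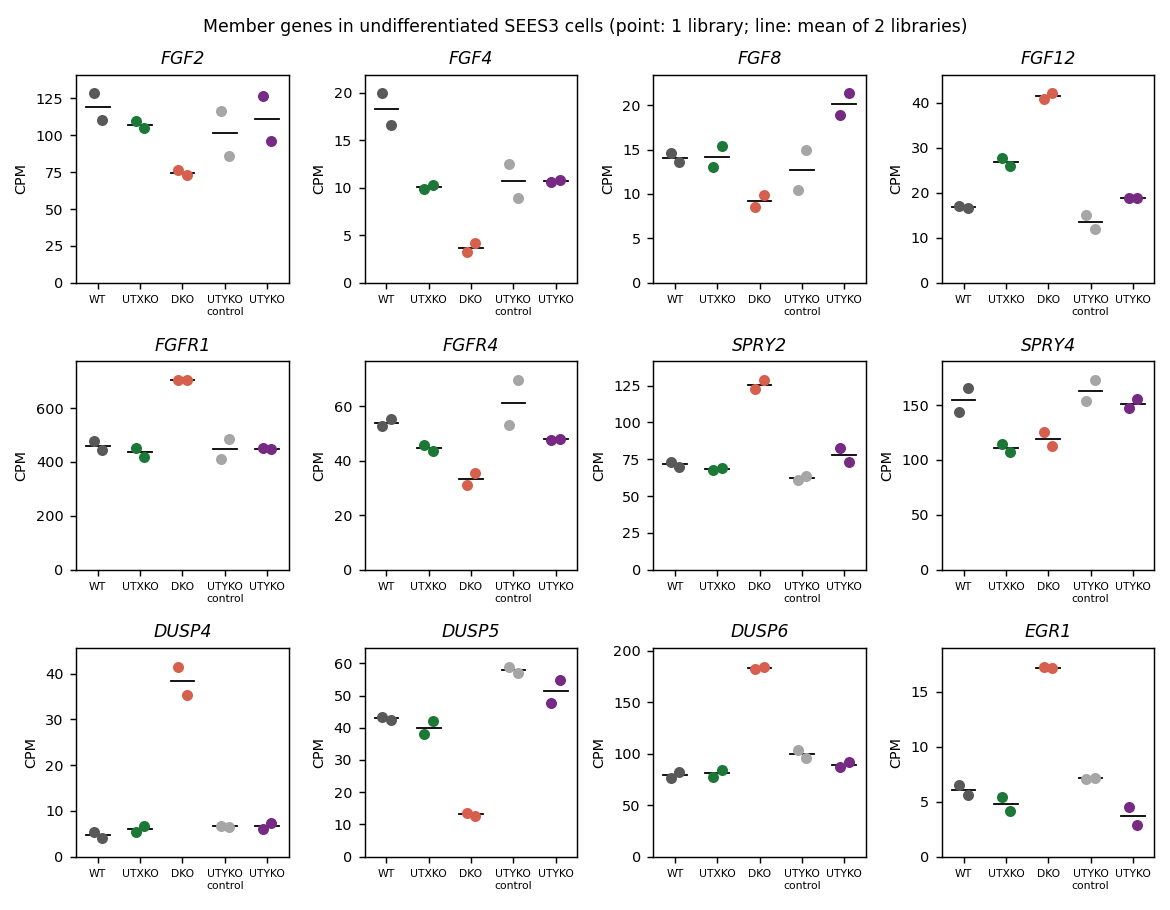
Levels in CPM (vertical axes, each from 0) of 12 member genes in the 5 groups of undifferentiated SEES3 cells (horizontal axes), with 1 point per library and a line at the mean of the 2 libraries. Both DKO libraries stand apart from the other 8 for FGFR1, SPRY2, DUSP4, DUSP5, DUSP6 and EGR1, while SPRY4 is as low in UTXKO as in DKO.

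Set against UTXKO, the double knockout differed in 20 of 27 members, 11 higher and 9 lower, where 18.3% of 14482 genes were higher and 16.6% lower. The phosphatases DUSP4 (log2 fold change 2.64 ± 0.17 (SE), adjusted p = 1.15e-12), DUSP6 (1.15 ± 0.079 (SE), adjusted p = 5.84e-12) and DUSP5 (-1.64 ± 0.12 (SE), adjusted p = 3.79e-11) differed with the same directions as against WT. EGR1 was higher by 1.80 ± 0.20 (adjusted p = 4.64e-08), SPRY2 by 0.84 ± 0.079 (2.77e-09) and FGFR1 by 0.66 ± 0.068 (1.60e-08). FGF4 was lower in DKO than in UTXKO as well (log2 fold change -1.48 ± 0.23 (SE), adjusted p = 8.96e-06). Of the genes called in UTXKO against WT, SPRY4 did not pass the test between DKO and UTXKO (log2 fold change 0.070 ± 0.086, adjusted p = 0.567), FGF12 was higher in DKO (0.60 ± 0.11, 9.02e-05) and ETV5 was higher in DKO (0.36 ± 0.084, 0.00149). The call of FGF8 (log2 fold change -0.65 ± 0.17) was lost without DKO 1 (adjusted p = 0.0589), that of FGF13 without UTXKO 1 (0.108) or DKO 1 (0.166), and that of SPRED2 without UTXKO 2 (0.176) or DKO 1 (0.333).

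A contrast of the DKO change with the sum of the UTXKO and UTYKO changes, each against its own control, was past the threshold in 13 of 28 members, 6 above the sum and 7 below it. Of 15191 genes, 6.74% were above and 5.67% below. DUSP4 (2.58 ± 0.29 on the log2 scale, adjusted p = 1.54e-06), EGR1 (2.84 ± 0.33, 2.54e-06), DUSP6 (1.30 ± 0.16, 5.80e-06) and FGFR1 (0.66 ± 0.14, 0.00295) lay above the sum. FGF4 (-1.51 ± 0.31, 0.00196), DUSP5 (-1.48 ± 0.20, 1.55e-05), FGF8 (-1.30 ± 0.27, 0.00236) and FGF19 (-1.09 ± 0.19, 4.46e-04) lay below it. These 8 calls held without each of the 8 libraries of the knockouts and the UTYKO control. Those of FGF2, FGF16, FGF17, SPRY2 and ETV4 were each lost without at least 1 of them: FGF2 without either UTXKO library, either DKO library or UTYKO 1 (adjusted p = 0.0716 to 0.165), FGF16 without either UTXKO or DKO library or UTYKO 2 (0.0579 to 0.448), FGF17 without UTXKO 1 or control 2 (0.0887 and 0.141), SPRY2 without any UTXKO, DKO or UTYKO library (0.0598 to 0.217), and ETV4 without UTXKO 2, either DKO library or UTYKO 2 (0.0732 to 0.149). The WT libraries cancel from this contrast, so it rests on the UTYKO control, which differed from WT in FGF4, FGFR2, DUSP5 and DUSP6 (above).

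In H9 cells with loss of UTX, 2 of 4 receptor genes and 5 of 13 feedback and target genes rose and 1 feedback gene fell. Of 27 members tested, 7 rose and 1 fell (limma on log2(TPM + 1)), against 2.81% and 1.77% of 17148 genes. The 4 knockout libraries of both sets were fitted as 1 group, with no term for the set. The members' median log2 fold change was 0.31 and that of all genes 0.090. The scale of log2(TPM + 1) understates the change of genes with low values. EGR1 was at 26.9 and 20.2 TPM in WT, 94.95 and 93.4 TPM in set 3 and 102 and 115 TPM in set 4 (log2 fold change 2.07 ± 0.14 (SE), adjusted p = 6.94e-04). All 4 knockout libraries lay above both WT libraries. DUSP6 was at 274 and 279 TPM in WT, 450.0 and 489.5 TPM in set 3 and 462 and 458 TPM in set 4 (log2 fold change 0.75 ± 0.053 (SE), adjusted p = 8.72e-04). SPRY4 was at 142 and 154 TPM in WT, 246 and 234 TPM in set 3 and 230.2 and 264 TPM in set 4 (log2 fold change 0.71 ± 0.075 (SE), adjusted p = 0.00485). SPRY2 was at 57.3 and 62.8 TPM in WT, 108 and 109 TPM in set 3 and 96.7 and 99.5 TPM in set 4 (log2 fold change 0.77 ± 0.087 (SE), adjusted p = 0.00588). None of these genes had overlapping groups, and both sets stood on the same side of WT. In undifferentiated SEES3 UTXKO cells, by contrast, SPRY4 fell, and 0 of the 13 feedback and target genes were called higher (above). The difference between the 2 lines was not tested.

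FGFR2 in H9 was at 57.7 and 49.7 TPM in WT, 92.4 and 86.7 TPM in set 3 and 87.1 and 88.6 TPM in set 4 (log2 fold change 0.72 ± 0.089 (SE), adjusted p = 0.00909). FGFR1 was at 152 and 149 TPM in WT and at 191 and 185 TPM and 186 and 192 TPM in sets 3 and 4 (log2 fold change 0.33 ± 0.056 (SE), adjusted p = 0.0239). Both receptors rose with no overlap. DUSP4 was at 9.498 and 7.87 TPM in WT, 20.04 and 16.3 TPM in set 3 and 16.7 and 19.1 TPM in set 4 (log2 fold change 0.98 ± 0.19 (SE), adjusted p = 0.03200). DUSP5 was the 1 member that fell, at 98.4 and 96.2 TPM in WT, 42.5 and 66.6 TPM in set 3 and 48.03 and 54.9 TPM in set 4 (log2 fold change -0.88 ± 0.17 (SE), adjusted p = 0.0312). No ligand of 10 tested was called by limma, and 2 had an unadjusted p under 0.05. FGF19 was at 29.5 and 21.5 TPM in WT, 0.03699 and 8.13 TPM in set 3 and 7.04 and 4.87 TPM in set 4, every knockout library below both WT libraries but widely spread (adjusted p = 0.146), and it was called without set 3 a (0.0348). FGF2 was at 73.6 and 82.2 TPM in WT, 65.95 and 76.04 TPM in set 3 and 61.5 and 68.1 TPM in set 4 (log2 fold change -0.20 ± 0.11, adjusted p = 0.349).

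Calls of EGR1, DUSP6, SPRY4 and FGFR2 in H9 held without each of the 6 libraries in turn. The call of SPRY2 was lost without WT a (adjusted p = 0.0537), that of DUSP4 without any of the 6 libraries (0.0590 to 0.117), that of DUSP5 without each library but set 3 b (0.0518 to 0.170) and that of FGFR1 without each library but set 3 b (0.0572 to 0.1204). Without WT a, WT b, set 4 a or set 4 b, 4, 5, 5 and 5 members were called. With only 1 of the sets against WT, 2 members were called for set 3 and 2 for set 4, in both cases EGR1 and DUSP6. SPRY4 and FGFR2 were thus not called with a single set. With TMM-rescaled TPM, FGFR1 was not called (adjusted p = 0.0680). The summed level of 6 neural ectoderm genes was 40.9 to 43.1 TPM in H9 WT and 85.9 to 109.9 TPM in the knockouts. That of 6 pluripotency genes was 6678 to 6740 TPM and 5016 to 5247 TPM. Of the 4 neural genes tested singly, limma called 2 higher and 0 lower, and of the 6 pluripotency genes 1 higher and 3 lower. The part of both lists in these results was not tested. FGF3, FGF5, FGF7 and FGF21 were not analysed here in H9.

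In the 3 differentiating cultures, ligand levels in WT cells differed widely from gene to gene within each table. In Endo, FGF17 stood highest at 1524 and 1527 TPM, followed by FGF4 at 182 and 223 TPM and FGF8 at 132 and 83.6 TPM. In Meso, FGF19 was at 915 and 848 TPM, FGF8 at 404 and 369.5 TPM, FGF17 at 361 and 283 TPM and FGF3 at 76.5 and 61.5 TPM. In Ecto, FGF8 was at 50.1 and 62.5 TPM and FGF2 at 36.8 and 45.8 TPM. FGF8 and FGF2 did not overlap in Ecto WT, and neither did FGF8 and FGF17 in Meso WT, whose nearest values were 369.5 and 361 TPM. FGF4 was listed at 0 in 1 of the 2 WT libraries of both Meso and Ecto, and FGF16 was listed at 0 in all 8 libraries of each of these cultures. FGF5, FGF7, FGF11, FGF21 and FGF22 were not analysed here in the 3 cultures.

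**Figure D3:**
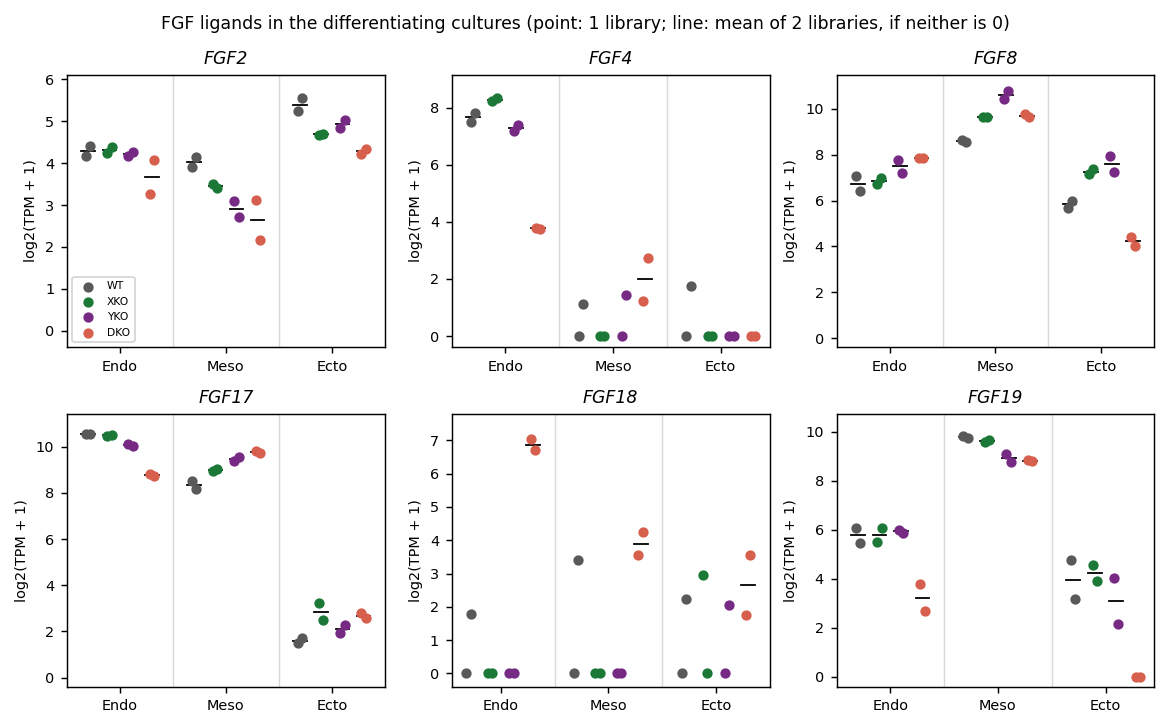
Levels of 6 ligand genes as log2(TPM + 1) (vertical axes) in the Endo, Meso and Ecto cultures (horizontal axes), with 1 point per library, a colour per genotype and a line at the mean of the 2 libraries where neither is 0. FGF4, FGF17 and FGF19 are lower in Endo DKO than in the other Endo libraries, FGF18 is higher there, and FGF8 in Ecto is lowest in DKO.

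In Endo cultures, the double knockout had lower FGF4, FGF17 and FGF19 than the wild type and higher FGF18, FGF9 and SPRY1. Of 29 members tested, 6 rose and 6 fell (limma), against 7.01% and 5.1% of 15660 genes. The members' median log2 fold change was -0.23 and that of all genes 0.12. FGF4 was at 182 and 223 TPM in WT and 12.9 and 12.4 TPM in DKO (log2 fold change -3.89 ± 0.15 (SE), adjusted p = 1.96e-05), while XKO was at 298 and 325 TPM and YKO at 146 and 167 TPM. FGF17 was at 1524 and 1527 TPM in WT and 448 and 426 TPM in DKO (log2 fold change -1.80 ± 0.088 (SE), adjusted p = 3.38e-05), and YKO lay between them at 1108 and 1052 TPM. FGF19 was at 67.1 and 43.4 TPM in WT and 12.8 and 5.401 TPM in DKO (log2 fold change -2.55 ± 0.39 (SE), adjusted p = 0.00603). The DKO libraries of these 3 genes lay below all 6 other Endo libraries. FGF16 was at 12.9 and 11.9 TPM in WT and listed at 0 in both DKO libraries (adjusted p = 0.00253).

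FGF18, a ligand of bone and lung development, was listed at 0 and 2.47 TPM in Endo WT and at 131 and 103 TPM in Endo DKO (adjusted p = 0.00121). All 4 single knockout libraries were listed at 0. FGF9 was listed at 0 in both WT libraries and at 10.8 and 7.099 TPM in DKO (adjusted p = 0.00875). Without the DKO libraries, neither FGF18 nor FGF9 reached 1 TPM in 2 Endo libraries. Both were thus tested only through the group where they are high, which limits the reading of their p-values. FGF8 was at 132 and 83.6 TPM in WT and 234 and 229 TPM in DKO (log2 fold change 1.13 ± 0.25 (SE), adjusted p = 0.02595). FGF2 was at 16.97 and 20.4 TPM in WT and 8.59 and 15.97 TPM in DKO and did not pass the test (log2 fold change -0.62 ± 0.34, adjusted p = 0.286).

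Of the 4 receptors, FGFR3 alone was called in Endo DKO, at 42.99 and 55.1 TPM in WT and 93.7 and 122 TPM in DKO (log2 fold change 1.12 ± 0.23 (SE), adjusted p = 0.0207). FGFR1 had a log2 fold change of 0.22 ± 0.13 (adjusted p = 0.331), FGFR2 of -0.46 ± 0.19 (0.161) and FGFR4 of -0.42 ± 0.25 (0.332). SPRY1, an inhibitor of receptor signalling, was at 65.3 and 34.9 TPM in WT and 194 and 153 TPM in DKO (log2 fold change 1.83 ± 0.32 (SE), adjusted p = 0.0101). SPRY2 was at 183 and 229 TPM in WT and 335 and 286 TPM in DKO (log2 fold change 0.59 ± 0.15 (SE), adjusted p = 0.0419). Both inhibitors rose without overlap. SPRY4 fell from 275 and 311 TPM to 173 and 192 TPM (log2 fold change -0.68 ± 0.17 (SE), adjusted p = 0.0384), and YKO was also below WT at 167 and 217 TPM. EGR1 fell from 18.3 and 11.03 TPM to 5.57 and 4.703 TPM (log2 fold change -1.32 ± 0.34 (SE), adjusted p = 0.0443). DUSP6 at 279 and 329 TPM in DKO against 194 and 245 TPM in WT (adjusted p = 0.0729) and ETV4 at 146 and 224 TPM against 249 and 236 TPM (adjusted p = 0.206) did not pass.

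Calls of FGF4, FGF16, FGF17, FGF18 and FGF19 in Endo DKO held without each of the 4 libraries compared. The others were lost without at least 1: FGF8 without WT b or either DKO library (adjusted p = 0.0973 to 0.119), FGF9 without WT a (0.0512; without DKO a or DKO b it fell below the TPM filter and was not tested), FGFR3 without WT a or DKO b (0.1198 and 0.134), SPRY1 without DKO a (0.0636), and SPRY2 (0.0530 to 0.224), SPRY4 (0.101 to 0.1801) and EGR1 (0.0533 to 0.215) without any of the 4. Without WT a, DKO a or DKO b, 7, 6 and 6 members were called, and with TMM-rescaled TPM SPRY2 was not called (0.0762). In the single knockouts no member was called by limma, with 4 at an unadjusted p under 0.05 in XKO (FGF1, FGF4, FGF12 and DUSP6) and 6 in YKO (FGF4, FGF8, FGF17, FGFR2, SPRY4 and SPRED2), where 0.0319% and 0.0255% of genes were called. The summed level of 6 endoderm genes was 31950 to 32060 TPM in Endo WT and 8915 to 9549 TPM in Endo DKO, and that of 6 pluripotency genes 5285 to 5563 TPM and 3240 to 3281 TPM. Together with the rise of neural genes (above), the part of these markers in the results was not tested.

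In Meso cultures, the double knockout had less FGFR3, FGFR4 and FGF19 and more FGF8, FGF17, FGF12 and SPRY2. Of 30 members tested, 5 rose and 4 fell, against 6.37% and 3.7% of 15125 genes. The median log2 fold change was 0.61 for the members and 0.21 for all genes, and rescaling the TPM by TMM factors (trimmed mean of M values) moved the latter to 0.034. With that rescaling 5 members rose and 5 fell, and over all genes the split of 963 higher and 560 lower became 799 and 792. FGF8 was at 404 and 369.5 TPM in WT and 882 and 787 TPM in DKO (log2 fold change 1.11 ± 0.15 (SE), adjusted p = 0.00509), with XKO at 809 and 810.4 TPM and YKO at 1385 and 1730.0 TPM. All 6 knockout libraries were above both WT libraries, with YKO highest. FGF17 was at 361 and 283 TPM in WT and 903 and 855 TPM in DKO (log2 fold change 1.45 ± 0.16 (SE), adjusted p = 0.00214). FGF19 fell from 915 and 848 TPM to 461 and 444 TPM (log2 fold change -0.96 ± 0.15 (SE), adjusted p = 0.00792), and the YKO libraries were at 548 and 436 TPM. FGF12 was at 4.64 and 5.17 TPM in WT and 31.2 and 17.8 TPM in DKO (log2 fold change 2.06 ± 0.49 (SE), adjusted p = 0.0398).

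FGF2 was at 14.1 and 16.8 TPM in Meso WT and 7.67 and 3.51 TPM in Meso DKO, with no overlap but an adjusted p of 0.0937. FGF4 was at 0 and 1.201 TPM in WT and 1.37 and 5.63 TPM in DKO (adjusted p = 0.257). Of the receptors, FGFR4 was at 68.1 and 54.5 TPM in WT and 7.204 and 7.42 TPM in DKO (log2 fold change -2.90 ± 0.24 (SE), adjusted p = 9.72e-04). FGFR3 was at 32.4 and 31.4 TPM in WT and 4.47 and 1.23 TPM in DKO (log2 fold change -3.24 ± 0.46 (SE), adjusted p = 0.00568). Both receptors were lower in DKO than in all 6 other Meso libraries. FGFR1 at 91.4 and 84.6 TPM in WT and 114 and 110.0 TPM in DKO (adjusted p = 0.402) and FGFR2 (log2 fold change -0.080 ± 0.47, adjusted p = 0.935) were not called.

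SPRY2 in Meso was at 50.99 and 29.6 TPM in WT and 177 and 191 TPM in DKO (log2 fold change 2.21 ± 0.33 (SE), adjusted p = 0.00681), with the single knockouts between 28.4 and 46.2 TPM. ETV1 was at 7.81 and 7.51 TPM in WT and 31.5 and 24.7 TPM in DKO (log2 fold change 1.74 ± 0.38 (SE), adjusted p = 0.02798). ETV4 was at 289 and 226 TPM in WT and 148 and 144 TPM in DKO (log2 fold change -0.81 ± 0.18 (SE), adjusted p = 0.02905). These PEA3 factors thus moved in opposite directions. DUSP6 was at 38.9 and 41.4 TPM in WT and 89.8 and 93.97 TPM in DKO and was not called (log2 fold change 1.18 ± 0.42, adjusted p = 0.122), and SPRY4 had a log2 fold change of 0.64 ± 0.36 (adjusted p = 0.303). When the 4 libraries of WT and DKO were fitted alone, DUSP6 (adjusted p = 0.00918), SPRY4 (0.0376) and FGF13 (0.0256) were called.

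Calls of FGF17 and FGFR4 in Meso DKO held without each of the 4 libraries. The others were lost without at least 1: FGF8 without DKO a (adjusted p = 0.0538), FGFR3 without WT a (0.0579), SPRY2 without either DKO library (0.0510 and 0.0641), FGF19 without WT a or either DKO library (0.0621 to 0.0805), and FGF12 (0.118 to 0.246), ETV1 (0.113 to 0.203) and ETV4 (0.0578 to 0.183) without any of the 4. Without WT a, DKO a or DKO b, 4, 3 and 4 members were called. In the single knockouts, limma called 0 members in XKO, with 6 at an unadjusted p under 0.05, and 1 in YKO, where 0.0397% and 0.0132% of genes were called. That member was FGF8 (log2 fold change 2.00 ± 0.15 (SE), adjusted p = 0.0107), whose call was lost without WT a (adjusted p = 0.2505) or WT b (0.182) and with rescaled TPM (0.0639), and without YKO a 11 members were called. FGF8 in XKO had a log2 fold change of 1.07 ± 0.15 (adjusted p = 0.0921). The summed level of 6 mesoderm genes was 3497 to 3767 TPM in Meso WT and 2805 to 3037 TPM in Meso DKO. That of 4 endothelial genes was 92.0 to 96.9 TPM and 3.17 to 3.75 TPM, with CDH5 listed at 0 in both groups. Tested singly, 3 of 6 mesoderm genes and 1 of 2 endothelial genes were called lower by limma, and 0 higher. The part of both lists in the results was not tested.

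In Ecto cultures, the double knockout had lower levels of many FGF pathway genes. Of 27 members tested, 12 fell and 1 rose, where 3.86% of 15433 genes fell and 4.18% rose. The members' median log2 fold change was -0.56 and that of all genes 0.077. Feedback and target genes made up 7 of the 12 that fell, receptors 2 and ligands 3. The ligands did not fall as a class: of 10 tested, 3 were called lower and 0 higher, but their median log2 fold change was 0.72. That of the feedback and target genes was -0.73. FGF8, the ligand with the highest level in Ecto WT, was at 50.1 and 62.5 TPM in WT and 20.4 and 15.3 TPM in DKO (log2 fold change -1.61 ± 0.26 (SE), adjusted p = 0.00997). The single knockouts lay on the other side of WT, with XKO at 140.2 and 166 TPM and YKO at 244 and 151 TPM, although neither change was called (adjusted p = 0.0898 and 0.0865). FGF2 was at 36.8 and 45.8 TPM in WT and 17.8 and 19.2 TPM in DKO (log2 fold change -1.11 ± 0.22 (SE), adjusted p = 0.0235), below all 6 other Ecto libraries. FGF19 was at 26.1 and 8.12 TPM in WT and listed at 0 in both DKO libraries (adjusted p = 0.0186). FGF4 was listed at 0 and 2.34 TPM in WT and at 0 in the 6 knockout libraries, and it was not tested.

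FGFR4 was at 30.8 and 29.2 TPM in Ecto WT and 4.01 and 1.13 TPM in Ecto DKO (log2 fold change -3.25 ± 0.46 (SE), adjusted p = 0.006000). FGFR1 was at 219 and 217 TPM in WT and 157 and 139 TPM in DKO (log2 fold change -0.56 ± 0.12 (SE), adjusted p = 0.0287). The XKO libraries, at 163 and 156 TPM, were nearly as low for FGFR1 without being called (adjusted p = 0.252). FGFR3 was at 88.1 and 131 TPM in WT and 207 and 174 TPM in DKO (log2 fold change 0.81 ± 0.20, adjusted p = 0.0507). FGFR2 was at 86.9 and 89.7 TPM in WT and 102 and 105 TPM in DKO (log2 fold change 0.23 ± 0.14, adjusted p = 0.384). For FGFR2 and FGFR3 the DKO libraries were above the WT libraries without passing the test, and FGFR3 was called without WT b (log2 fold change 1.096, adjusted p = 0.0370).

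Of the feedback and target genes in Ecto, ETV5 was at 80.2 and 72.99 TPM in WT and 14.2 and 9.41 TPM in DKO (log2 fold change -2.62 ± 0.20 (SE), adjusted p = 3.81e-04). ETV4 was at 99.6 and 143 TPM in WT and listed at 12.3 and 0 TPM in DKO (adjusted p = 0.0206). ETV1 was at 59.2 and 49.97 TPM in WT and 19.04 and 19.2 TPM in DKO (log2 fold change -1.46 ± 0.19 (SE), adjusted p = 0.00369). All 3 PEA3 factors were lower in DKO than in the other Ecto libraries. DUSP6 was at 184 and 159 TPM in WT and 31.2 and 59.1 TPM in DKO (log2 fold change -1.97 ± 0.27 (SE), adjusted p = 0.00506), with YKO at 276 and 325 TPM. SPRY1 was at 56.9 and 39.2 TPM in WT and 13.4 and 15.1 TPM in DKO (log2 fold change -1.67 ± 0.22 (SE), adjusted p = 0.00447), with YKO at 134 and 107 TPM. For both genes the DKO libraries were below WT and the YKO libraries above it. SPRY2 was at 116 and 113 TPM in WT and 73.5 and 81.2 TPM in DKO (log2 fold change -0.56 ± 0.13 (SE), adjusted p = 0.0376). DUSP4 was at 53.03 and 43.7 TPM in WT and 23.9 and 18.7 TPM in DKO (log2 fold change -1.15 ± 0.28 (SE), adjusted p = 0.0489). EGR1 was the 1 member that rose, from 3.78 and 2.36 TPM in WT to 29.2 and 29.4 TPM in DKO (log2 fold change 2.92 ± 0.34 (SE), adjusted p = 0.00239), and both single knockouts lay between, at 12.98 and 14.7 TPM in XKO and 14.9 and 12.1 TPM in YKO. SPRY4 was at 19.9 and 21.4 TPM in WT and 12.5 and 11.6 TPM in DKO and was not called (adjusted p = 0.0958).

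Calls of FGFR4, SPRY1, DUSP6, ETV1, ETV5 and EGR1 in Ecto DKO held without each of the 4 libraries. The others were lost without at least 1: FGF8 without WT b or DKO b (adjusted p = 0.0750 and 0.0694), FGF19 without WT a or either DKO library (0.0857 to 0.0975), ETV4 without either WT library (0.0817 and 0.113), and FGF2 (0.0622 to 0.137), FGFR1 (0.0714 to 0.156), SPRY2 (0.103 to 0.181) and DUSP4 (0.115 to 0.2099) without any of the 4. Without WT a, WT b, DKO a or DKO b, 7, 8, 8 and 7 members were called. In XKO 1 member was called, FGF12, at 7.27 and 10.1 TPM in WT and 48.04 and 40.4 TPM in XKO (log2 fold change 2.24 ± 0.29 (SE), adjusted p = 0.0327), and the call was lost without any of the 4 libraries (0.127 to 0.255). In YKO limma called 0 members, with 10 at an unadjusted p under 0.05. Of all genes, 0.356% were called in XKO and 0.0842% in YKO. The summed level of 7 fibroblast genes was 64.0 to 74.9 TPM in Ecto WT and 451 to 659 TPM in Ecto DKO. Of these 7 genes, 3 were called higher and 1 lower in DKO. The sum of 6 pluripotency genes was 4908 to 4980 TPM in Ecto WT and 1941 to 2135 TPM in Ecto DKO. The part of both lists in the results was not tested.

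**Figure D4:**
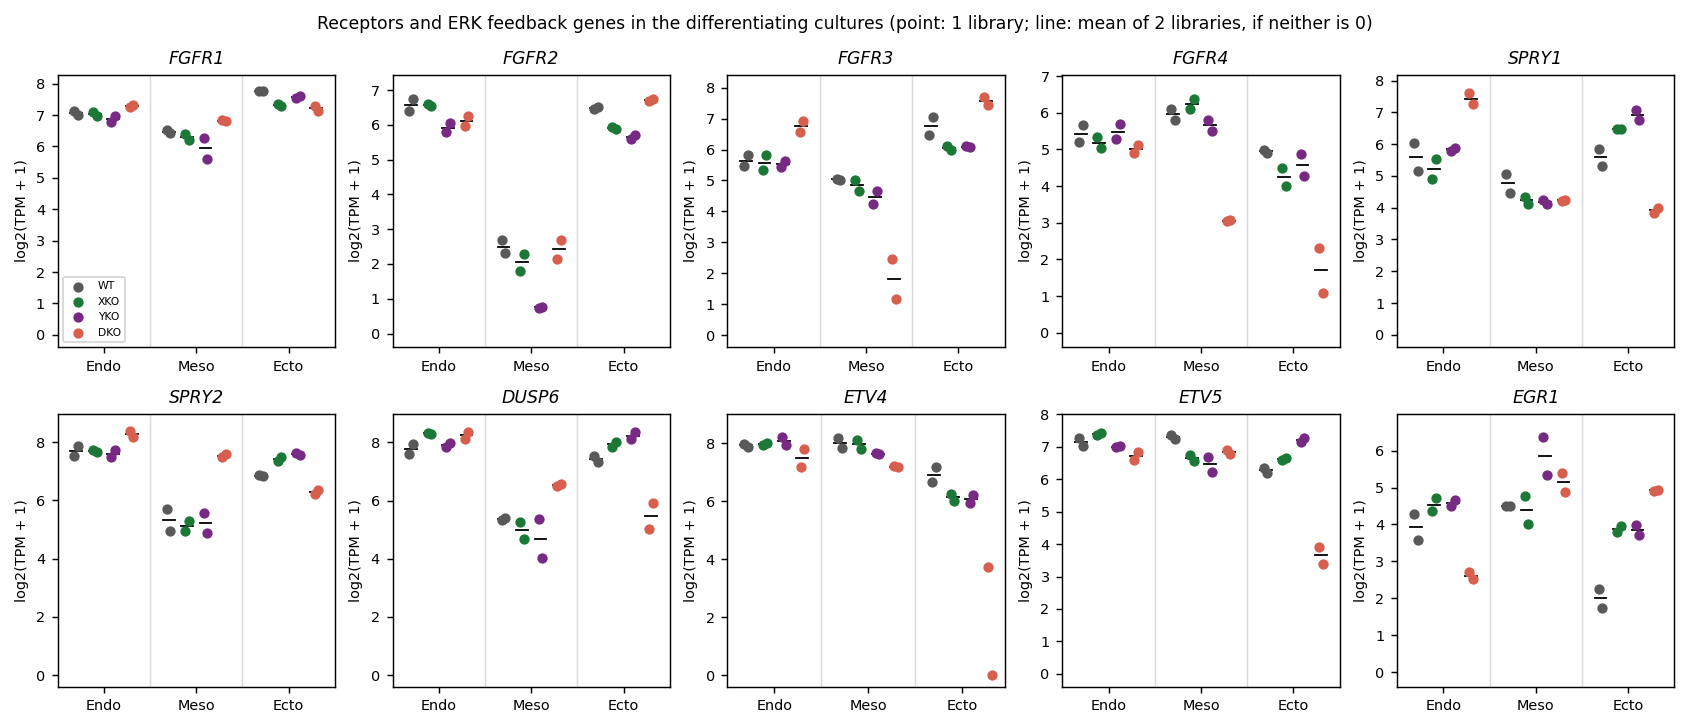
Levels of the 4 receptor genes and 6 feedback and target genes as log2(TPM + 1) (vertical axes) in the Endo, Meso and Ecto cultures (horizontal axes), with 1 point per library, a colour per genotype and a line at the mean of the 2 libraries where neither is 0. FGFR4 is lower in Meso and Ecto DKO than in the other genotypes, SPRY2 is higher in Meso DKO, and ETV4, ETV5 and DUSP6 are lowest in Ecto DKO.

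A contrast of the DKO change with the sum of the XKO and YKO changes was tested within each culture. In Endo it passed the threshold in 6 of 29 members, 1 above the sum and 5 below it, against 1.93% and 1.44% of genes. FGF4 (-4.14 ± 0.21 on the log2 scale, adjusted p = 2.36e-04) and FGF17 (-1.22 ± 0.12, 0.00329) lay below the sum and FGF18 (adjusted p = 0.00578) above it, and these 3 calls held without each of the 8 Endo libraries. Those of FGF16 (adjusted p = 0.0243), FGF19 (0.0437) and EGR1 (0.0336) were lost without 6, 7 and 8 of the 8 libraries: FGF16 without all but XKO b and YKO a (0.0526 to 0.0994), FGF19 without all but DKO a (0.0756 to 0.133), and EGR1 without each (0.0598 to 0.111). Between 3 and 4 members were called without 1 library, with 3 without WT a, XKO a, YKO b or DKO b.

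In Meso the contrast passed in 14 of 30 members, 11 above the sum and 3 below it, against 21.8% and 6.43% of genes, and the median over all genes was itself 0.75. With TMM-rescaled TPM that median was 0.15, the members split into 5 above and 5 below, and all genes split into 1776 above and 1959 below in place of 3291 and 972. SPRED2 (3.06 ± 0.54, adjusted p = 0.0104), SPRED1 (2.61 ± 0.33, 0.00643) and SPRY2 (2.50 ± 0.47, 0.0116) lay above the sum. SPRED2, an inhibitor of RAF activation, was at 53.3 and 51.8 TPM in WT, 26.5 and 27.9 TPM in XKO, 24.2 and 9.74 TPM in YKO and 77.9 and 64.8 TPM in DKO. The single knockouts were thus lower than WT and the DKO libraries higher, although none of these changes against WT was called. FGFR4 (-2.89 ± 0.34, 0.005499) and FGF8 (-1.96 ± 0.21, 0.00539) lay below the sum. These 5 calls held without each of the 8 Meso libraries, and those of FGF3, FGF13, FGF18, FGFR2, FGFR3, SPRY4, DUSP6, ETV1 and ETV5 were each lost without at least 4 of them (adjusted p = 0.0522 to 0.171). The count was 16 members without YKO a, 9 without YKO b, 8 without XKO a, 6 without WT a, WT b, XKO b or DKO a, and 5 without DKO b.

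In Ecto the contrast passed in 8 of 27 members, 2 above the sum and 6 below it, against 0.518% and 1.01% of genes. FGF8 lay furthest below (-4.80 ± 0.37, adjusted p = 0.00149), followed by ETV5 (-3.91 ± 0.29, 0.00149), SPRY1 (-3.88 ± 0.31, 0.00193), DUSP6 (-3.28 ± 0.38, 0.00777), SPRY4 (-2.22 ± 0.32, 0.0195) and SPRY2 (-1.88 ± 0.18, 0.00353). FGFR2 (1.63 ± 0.20, 0.0102) and FGFR3 (2.19 ± 0.29, 0.0142) lay above it. For all 8 genes the single knockout libraries lay on the opposite side of WT from the DKO libraries. Calls of FGF8, ETV5, SPRY1 and SPRY2 held without each of the 8 libraries. DUSP6 was lost without XKO b (adjusted p = 0.0532), FGFR2 without WT b or either XKO library (0.0572 to 0.0668), FGFR3 without either XKO library or DKO a (0.0543 to 0.0746), and SPRY4 without any of the 8 (0.0563 to 0.0953). Without XKO a 5 members were called, and without XKO b 4.

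**Figure D5:**
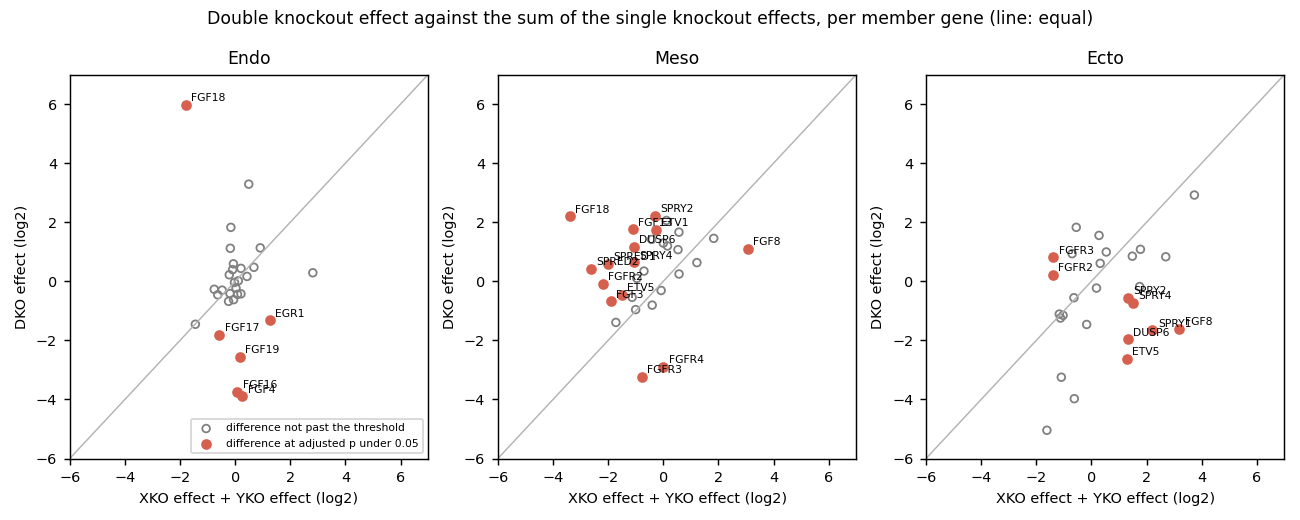
Log2 fold change of DKO against WT (vertical axes) against the sum of the log2 fold changes of XKO and YKO against WT (horizontal axes) for the tested members in each culture, 1 point per gene, on log2(TPM + 1), with a line where both are equal. Filled points have an adjusted p under 0.05 for the difference, and in Ecto FGF8, SPRY1, SPRY2, SPRY4, DUSP6 and ETV5 have a positive sum and a negative DKO change.

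Other genes of the pathway were counted from lists chosen, like the members, with earlier results of these data known, and for them single libraries were not left out in turn. Of 24 relay genes from the adaptor proteins to ERK, 2 rose and 5 fell in undifferentiated DKO, among them MAP2K1, which encodes MEK1 (-0.54 ± 0.072 (SE), adjusted p = 2.24e-06), the adaptor GRB2 (-0.40 ± 0.068 (SE), adjusted p = 5.42e-05) and the scaffold KSR1 (-0.53 ± 0.10 (SE), adjusted p = 8.55e-05). In Meso DKO limma called 0 of the 24, with 2 at an unadjusted p under 0.05, while 2 fell in Ecto DKO (PTPN11 and SHC1). In undifferentiated DKO, 23.5% of all genes rose and 23.4% fell. Of 15 tested co-receptors and binding proteins, 10 rose and 5 fell in undifferentiated DKO. FGFBP3, which encodes a secreted carrier of FGFs, rose from a mean of 37.6 CPM in WT to 191 CPM in DKO (2.30 ± 0.077 (SE), adjusted p = 2.72e-16). It also rose in UTXKO (0.54 ± 0.10 (SE), adjusted p = 7.16e-04), in H9 UTXKO (0.59 ± 0.068 (SE), adjusted p = 0.006604), in Endo DKO (3.15 ± 0.33 (SE), adjusted p = 0.00113) and in Meso DKO (4.68 ± 0.34 (SE), adjusted p = 5.45e-04). Of 15 genes of this list tested in Ecto DKO, 2 rose and 3 fell, against 4.18% and 3.86% of all genes. Those that fell were ANOS1 (-3.14 ± 0.16 (SE), adjusted p = 5.65e-05), GPC3 (-1.99 ± 0.10 (SE), adjusted p = 5.65e-05) and GPC4 (-1.34 ± 0.17 (SE), adjusted p = 0.00359). They encode cell-surface or matrix partners of heparan sulfate signalling.

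Of 11 tested heparan sulfate genes, 6 rose and 1 fell in undifferentiated DKO, against the same 23.5% and 23.4% of all genes. SULF1, an enzyme that removes sulfate groups from heparan sulfate outside the cell, rose in undifferentiated DKO (2.05 ± 0.12 (SE), adjusted p = 3.23e-12), in H9 UTXKO (1.77 ± 0.31 (SE), adjusted p = 0.0248) and in the Endo (2.52 ± 0.41 (SE), adjusted p = 0.00792), Meso (3.47 ± 0.50 (SE), adjusted p = 0.00605) and Ecto (4.52 ± 0.65 (SE), adjusted p = 0.00616) double knockouts. Of 16 other ERK feedback and early response genes tested in undifferentiated cells, 5 rose and 8 fell in DKO, against those same shares. IER3 (-2.19 ± 0.15 (SE), adjusted p = 5.24e-11) and PHLDA1 (-1.24 ± 0.10 (SE), adjusted p = 7.50e-10) fell, and PHLDA1 also fell in UTXKO (-0.77 ± 0.11 (SE), adjusted p = 2.16e-05). PHLDA1 was lower in the UTYKO control than in WT as well (-0.69 ± 0.14 (SE), adjusted p = 0.00124). In Ecto, IL17RD, a membrane inhibitor of FGF receptors, rose in XKO (1.06 ± 0.15 (SE), adjusted p = 0.0428) and in YKO (1.38 ± 0.15 (SE), adjusted p = 0.0305), from a mean of 97.4 TPM in WT to 204 and 255 TPM. JUN, an AP-1 factor, rose in Ecto DKO (3.12 ± 0.39 (SE), adjusted p = 0.00337), while CCND1, a cell cycle gene that growth factors induce, fell (-0.85 ± 0.10 (SE), adjusted p = 0.00267).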

How the data were processed

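Undifferentiated cells were deposited as gene counts, made by the authors with STAR and featureCounts on GRCh38, and the other libraries as TPM that the authors made with STAR and RSEM, per the submitters' processing notes. Tool versions, the annotation and the strand setting are not stated in the sources used here, and the library kit was a directional poly(A) kit, per the labels' protocols. The deposited counts held 5781357 to 14973722 reads per library, and the depth behind the TPM is unknown. In the H9 table no value is 0 and 27.7% to 32.2% of values lie under 5 times the smallest, so low H9 values were not read as expression. The 12 columns of the H9 table that name no H9 library were not used. Ensembl identifiers were paired with symbols for 99.65% of genes in the count tables, 99.8% in the culture tables and 99.74% in the H9 table, with 44 pseudoautosomal entries of chromosome Y kept apart.

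Counts were tested with edgeR 4.0.16 (filterByExpr, TMM, quasi-likelihood test) and, as an alternative, DESeq2 1.42.0. For TPM, the test was limma 3.58.1 with a trend, fitted once per table to log2(TPM + 1) of genes that reached 1 TPM in at least 2 libraries (R 4.3.3). Every test ran on the whole table, with Benjamini-Hochberg adjustment over all genes tested and a call at an adjusted p under 0.05. Standard errors of edgeR fold changes were taken as the fold change over the square root of its F statistic. With 2 libraries per group no exact test of 1 gene could reach that threshold. CPM are counts scaled to the library total. Scripts were tested on simulated data (Python 3.11.15, pandas 2.3.3). The intervals that a count of 0 allows cover counting error only.

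The members, the pathway and marker lists and the tests were chosen with earlier results of these data known. Genes given library by library were called members whose groups did not overlap and whose higher group averaged 5 or more (CPM or TPM), up to 10 per comparison by size of change. FGF2, FGF4, FGF8, the 4 receptors, SPRY4, DUSP6 and ETV4 were given in each DKO comparison. Of each pathway list, up to 3 called genes with the smallest p were open to naming. Other members named with values (such as FGF9, FGF13, FGF17 and FGF18 in undifferentiated cells, FGF19 in H9 and members that lost a call) were chosen after their values were seen. Alternatives were other size factors, DESeq2, no low-value filter, a joint fit, a replicate block, a pseudocount of 0.1, TMM-rescaled TPM, a fit of the 4 libraries compared alone, single H9 sets and leaving out each library.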

Additional observations from a re-analysis of the deposited data

Results flagged for a closer look

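For 10 members the change of the double knockout against WT had opposite signs in different cultures, each change being past the threshold and each pair of groups separate. The cultures were tested in separate tables, so the difference between them was not tested. Calls of both signs held without each library only for FGF17 (Endo and Meso) and DUSP6 (undifferentiated cells and Ecto). The call of FGF17 in undifferentiated cells did not hold. For the rest, calls of opposite sign did not both hold when single libraries were left out (above). Among ligands, the log2 fold change of FGF8 was -0.66 in undifferentiated cells, 1.13 in Endo, 1.11 in Meso and -1.61 in Ecto. That of FGF17 was 1.52 in undifferentiated cells, -1.80 in Endo and 1.45 in Meso. Among receptors, FGFR1 changed by 0.56 in undifferentiated cells and -0.56 in Ecto, and FGFR3 by 0.61 in undifferentiated cells, 1.12 in Endo and -3.24 in Meso.

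Among the inhibitors, SPRY1 changed by 1.83 in Endo and -1.67 in Ecto, and SPRY2 by 0.77 in undifferentiated cells, 0.59 in Endo, 2.21 in Meso and -0.56 in Ecto. The phosphatase gene DUSP4 changed by 3.02 in undifferentiated cells and -1.15 in Ecto, and DUSP6 by 1.15 and -1.97. Among the transcription factors, ETV1 changed by 1.74 in Meso and -1.46 in Ecto, and EGR1 by 1.47 in undifferentiated cells, -1.32 in Endo and 2.92 in Ecto. The changes are counts on a log2 scale in undifferentiated cells and log2(TPM + 1) elsewhere, so their sizes are not comparable between the 2 kinds of table. Of 33 members listed in H9, 2 had a knockout library that stood apart from the other 3 by Dixon's test, which chance gives in about 1 of 20 groups. FGF4 was at 0.935 TPM in set 3 b against 0.0157 to 0.0506 TPM in the other knockout libraries, and FGF20 at 1.741 TPM in set 4 a against 0.0214 to 0.0506 TPM. Both levels are low, and neither gene is described above in H9.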

How the results depend on the processing

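No member that was called, in the reported fit or under an alternative, changed sign. Over all tested members, comparisons and alternatives, 4401 values kept their side of the threshold, 277 lost a call and 58 gained one, 10 of them in Meso YKO without YKO a. The replicate block called 2 members in UTYKO, FGF8 (adjusted p = 0.00994) and EGR1 (0.00256), against 0 in the reported fit, and in UTXKO 5 (4), DKO 21 (22), DKO against UTXKO 20 (20), the UTYKO control against WT 5 (4) and the contrast with the sum 13 (13). Deviations of same-numbered undifferentiated libraries correlated at 0.00303 to 0.242 over genes, with 2 pairs per comparison, so the libraries were treated as sharing a number only. No paired analysis was possible for the TPM tables because their columns carry no replicate number. A joint fit of 10 libraries called 1 member in UTYKO. In H9, 2 members were called with set 3 only and 2 with set 4 only. FGF8 in Meso YKO was not called with TMM-rescaled TPM (0 members) or with the 4 libraries alone (0). The 4 libraries alone gave 8 members in Ecto DKO (13) and 0 in Ecto XKO (1). The cause of these differences was not tested, beyond the smaller number of libraries in those fits.

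Without 1 library each, the count ran from 0 to 4 in UTYKO, 1 to 11 in the UTYKO control against WT, 4 to 7 in H9, 6 to 8 in Endo DKO, 3 to 7 in Meso DKO, 0 to 11 in Meso YKO, 7 to 8 in Ecto DKO and 0 in Ecto XKO. For the contrast with the sum it ran from 3 to 4 in Endo, 5 to 16 in Meso and 4 to 7 in Ecto. A lone library left in a group is assumed to vary like the others. Depth limits ligands with few counts, and an unknown depth the low TPM.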
